A study of Mus musculus with 6 samples.

Results

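The nuclear genes for the enzymes of oxidative phosphorylation were compared between corneas of blast-exposed and unexposed mice. The genes were taken by symbol: those beginning with Ndufa, Ndufb, Ndufc, Ndufs or Ndufv and a digit, Sdha to Sdhd, and those beginning with Uqcr, with Cox4 to Cox8, or with Atp5, plus Cyc1 and Cycs, without the Ndufaf assembly factors. This gave 85 of 22007 gene symbols: 37 of complex I, 4 of complex II, 9 of complex III, Cycs, 18 of complex IV and 16 of complex V. Both groups were male C57BL/6J mice with the same time label of 12 months, the same tissue label (Cornea) and the same batch label (4), and their age is not given in the labels. The OFBI group had a single open-field blast injury, delivered to awake animals by 350 g of Composition C-4 at 3 m, and its corneas were taken 12 months later. The Naive group was labelled Naïve and no sham exposure is described. Each group had 3 libraries, each made from pooled corneas, so spread between libraries is spread between pools.

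Oxidative phosphorylation takes electrons from NADH at complex I and from succinate at complex II, passes them through complex III and cytochrome c to oxygen at complex IV, and uses the proton gradient built on the way to drive ATP synthesis at complex V. Complexes I, III, IV and V are assembled from nuclear-encoded and mitochondrially encoded subunits, while every subunit of complex II is nuclear. In the cornea, the endothelial layer that pumps fluid out of the stroma is rich in mitochondria, and the epithelium makes much use of glycolysis.

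The libraries differed in depth by group. The OFBI libraries held 1173472 to 3410476 estimated counts and the Naive libraries 41971752 to 47809779, a mean 16.7 times as many, and the 85 genes took 0.413% to 0.430% of the counts in OFBI libraries and 0.444% to 0.481% in Naive libraries. The third OFBI library was the shallowest, and 13 of the 85 genes had no count there, against 5 and 4 in the other OFBI libraries and 2 in each Naive library. Among the 73 genes at 10 CPM (counts scaled to a common library total, with TMM factors) or more in Naive, the median coefficient of variation between libraries was 29.7% in OFBI and 9.66% in Naive. Markers of other organs differed as well: the summed level of 19 hepatocyte genes was 241, 273 and 1228 CPM in OFBI libraries and 60.4 to 80.5 CPM in Naive libraries. Depth, spread and these transcripts moved with the group, and their part in the differences below was not tested. A difference in a bulk sample can also come from fewer cells of a type or from less RNA per cell, which cannot be told apart here.

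In the Naive corneas the most abundant of these transcripts belonged to complexes V and IV. Levels between genes were compared as CPM per kilobase of transcript, with CPM scaled by the trimmed mean of M-values (TMM) and length taken as the median over annotated transcripts. Atp5b, the catalytic beta subunit of the ATP synthase, stood first with 243, followed by Atp5h of the peripheral stalk with 205, Cox6a1 with 188, Cox4i1 with 183 and Atp5g3, a gene for the c-ring, with 157. Complex V genes made up 33.9% ± 0.214 (SD, n = 3) of the summed level per kilobase in Naive, complex I 29.0% ± 0.997, complex IV 22.8% ± 0.730, complex III 10.7% ± 0.0585 and complex II 3.53% ± 0.104. In OFBI the shares were 35.2% ± 1.28, 26.7% ± 0.806, 24.2% ± 1.45, 10.7% ± 1.98 and 3.04% ± 0.0993, in the same order (n = 3). The order of the complexes was the same in both groups, while the share of complex I was 25.8% to 27.3% in OFBI against 28.0% to 30.0% in Naive, and that of complex II 2.94% to 3.14% against 3.41% to 3.59%, with no overlap between groups in either. At the lower end, Cox7b2 and Cox8c had no count in any library, and Cox4i2 had none in OFBI and 0.316 to 0.970 CPM in Naive. The Cox4i2 level lay under the 1.61 CPM that 12 counts over the 3 OFBI libraries stand for, so its absence there was not detectable as a difference at this depth.

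The summed level of the 85 genes overlapped between the groups. It was 4508, 4439 and 4724 CPM in the OFBI libraries and 4191, 4466 and 4445 CPM in the Naive libraries, with means of 4557 ± 149 and 4367 ± 153 (SD, n = 3 each). The overlap rests on the scaling, since the unscaled shares of counts given above were lower in all 3 OFBI libraries than in any Naive library. The sums of complexes I, II, III and V overlapped too, and so did that of complex IV, at 718 to 823 CPM in OFBI and 646 to 737 CPM in Naive. The plot of summed levels by complex shows these values.

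**Figure D1:**
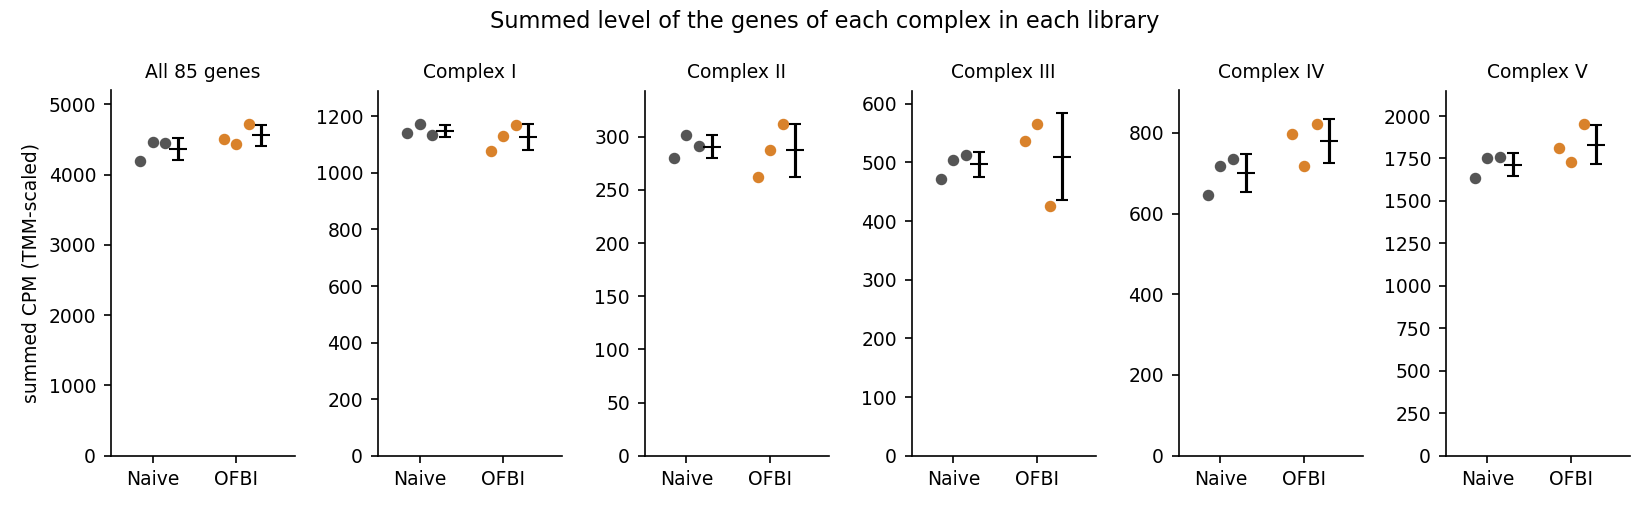
Summed TMM-scaled CPM of all 85 genes and of the genes of each complex, on axes that start at 0, with 1 point per library (grey Naive, orange OFBI) and the mean ± SD of the 3 libraries beside each group. The points of the 2 groups overlap in all 6 panels, and the third OFBI library is lowest for complex III.

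Most of the genes did not pass the test between groups, and the 9 that did moved in both directions. Of the 85 genes 82 passed the filter on low counts. By edgeR's quasi-likelihood test with Benjamini-Hochberg adjustment over all genes tested, at an adjusted p below 0.05, 4 genes rose, which is 4.88% of those tested, where 8.41% of all 13941 genes tested were called higher. In the other direction 5 genes fell, or 6.10%, where 10.4% of all genes tested were called lower. At an unadjusted p below 0.05 there were 7 higher and 7 lower. The TMM-scaled libraries of OFBI all lay above those of Naive for 9 genes (11%, against 16.4% of all genes tested) and all below for 17 genes (20.7%, against 29.9%). For 32 genes (39.0%) the 95% interval of the log2 fold change lay within 1 of 0, so that a change of more than 2-fold lay outside it, which held for 22.2% of all genes tested. The genes were also more abundant than the rest, with a median Naive level of 35 CPM against 21 CPM for all genes tested.

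The 9 calls depended on all 3 Naive libraries. Leaving out Naive library 1, 2 or 3 left none of the genes past the adjusted threshold in edgeR, and 106, 0 and 104 of all genes, while 11, 12 and 11 of the genes kept an unadjusted p below 0.05, the 9 among them in each case and in their direction. Leaving out OFBI library 2 gave 8 lower calls and leaving out OFBI library 3 gave 13, against 5 with all libraries. Each of these fits also gave 5 higher calls, and they called 20.6% and 24.7% of all genes tested. DESeq2 called 7 higher and 6 lower, and limma-voom called Ndufv1 only, with 19 genes at an unadjusted p below 0.05 by each tool.

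**Figure D2:**
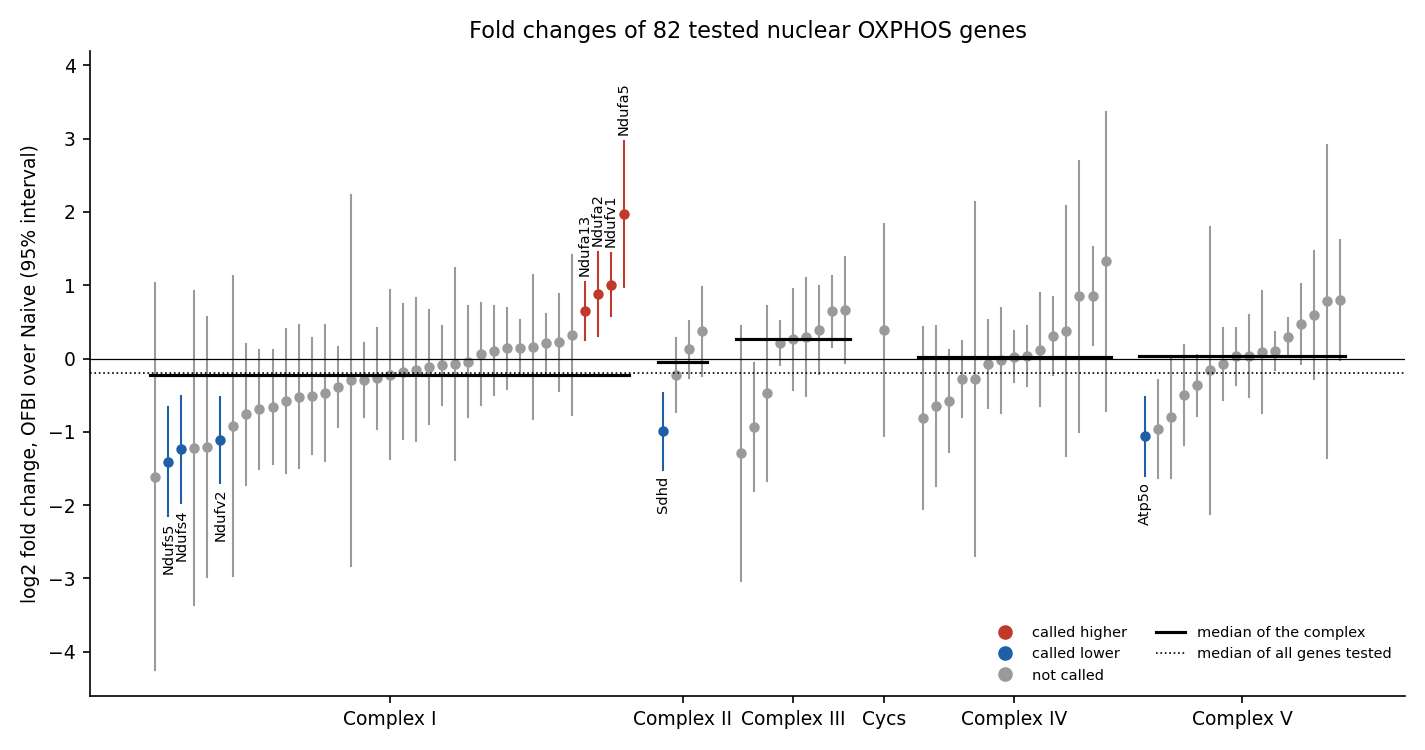
Log2 fold change of OFBI over Naive for the 82 tested genes, ordered within each complex, with the 95% interval from edgeR as a vertical line. Red and blue points are the 4 genes called higher and the 5 called lower, solid bars are the medians of the complexes and the dotted line is the median of all genes tested, -0.20.

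Complex I held 7 of the 9 calls, 18.9% of its 37 genes, about the 18.8% of all genes tested that were called in either direction. The genes were assigned to the structural modules of complex I after their values had been seen: the N module that oxidises NADH, the Q module that reduces ubiquinone, and the proximal and distal parts of the proton-pumping arm. In the N module 2 of 8 genes rose and 2 fell. In the Q module 1 of 8 rose and none fell, and in the proximal pump 1 of 9 rose and 1 fell. None of the 10 genes of the distal pump was called by edgeR, DESeq2 or limma-voom, and 0 had an unadjusted p below 0.05 in edgeR. Yet 8 of the 10 had negative log2 fold changes, as did 8240 of all 13941 genes tested. Their sum was 249 to 277 CPM in OFBI and 298 to 318 CPM in Naive. The N module sum went the other way, at 285 to 301 against 241 to 257 CPM. Without OFBI library 3, Ndufb7 and Ndufb9 were called lower (edgeR adjusted p = 0.0202 and 0.0320). These sums were not tested. The median log2 fold change of complex I was -0.22, beside -0.20 over all genes tested.

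Ndufv1 rose and Ndufv2 fell, although their products stand side by side at the NADH site. NDUFV1 carries the flavin that takes electrons from NADH and NDUFV2 holds an iron-sulphur cluster next to it. Ndufv1 (chr19:4007384-4012806, minus strand) was at 111, 115 and 152 CPM in the OFBI libraries and at 55.6, 64.6 and 67.0 CPM in the Naive libraries. The groups did not overlap, and Ndufv1 rose by 1.01 on the log2 scale (SE 0.18, edgeR adjusted p = 0.0179). Ndufv2 (chr17:66078638-66101559, minus strand) was at 18.9, 16 and 13.1 CPM in OFBI and at 36.1, 37.7 and 31.3 CPM in Naive. Every OFBI library was below every Naive library, and Ndufv2 fell by 1.11 on the log2 scale (SE 0.25, edgeR adjusted p = 0.0282). The ratio of Ndufv1 to Ndufv2 counts, which needs no scaling between libraries, was 5.87, 7.20 and 11.6 in OFBI and 1.54, 1.71 and 2.14 in Naive. This pair was chosen after its values were seen, so the ratio is given without a test. Ndufv2 was not called once a trend on transcript length and GC content was removed (edgeR adjusted p = 0.0782), while Ndufv1 was.

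The other calls of the N module were Ndufa2 and Ndufs4, both accessory subunits. Ndufa2 was at 73.0, 49.9 and 45.8 CPM in OFBI and 26.7, 32.0 and 33.4 CPM in Naive, with a log2 fold change of 0.88 (edgeR adjusted p = 0.0459). Ndufs4, whose loss in mice is a model of Leigh syndrome, was at 10.8, 14.1 and 7.48 CPM in OFBI and 27.6, 26.4 and 24.9 CPM in Naive. It fell by 1.24 on the log2 scale (edgeR adjusted p = 0.0369), with OFBI counts of only 35, 44 and 8. Neither gene overlapped between groups. Neither was called once the length and GC trend was removed (edgeR adjusted p = 0.0631 for Ndufa2 and 0.0819 for Ndufs4). Ndufs1, the largest core subunit of the module, was at 31.8, 65.3 and 37.4 CPM in OFBI and 40.5 to 45.5 CPM in Naive, with a log2 fold change of 0.06 and an interval from 0.645-fold to 1.68-fold.

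Ndufa5 had the largest fold change of the 9. It encodes an accessory subunit of the Q module. Its level was 20.7, 35.5 and 44.0 CPM in OFBI and 5.18, 9.83 and 10.1 CPM in Naive, a rise of 3.94-fold (95% interval 1.98 to 7.86, edgeR adjusted p = 0.0247) with no overlap between the groups. Ndufs3, Ndufs7 and Ndufs8 are core subunits of the same module, and the products of Ndufs7 and Ndufs8 hold its iron-sulphur clusters. Their log2 fold changes were 0.14, -0.52 and -0.27, and all 3 overlapped between groups. The interval of Ndufs3 ran from 0.749-fold to 1.62-fold.

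In the proximal pump, Ndufs5 fell and Ndufa13 rose. Ndufs5 was at 7.73, 8.96 and 6.55 CPM in OFBI and 20.7, 22.4 and 19.6 CPM in Naive, and fell by 1.41 on the log2 scale (edgeR adjusted p = 0.0282), with every OFBI library below every Naive library. Its OFBI counts were 25, 28 and 7, so few fragments decide these values. Ndufa13, an accessory subunit also studied in cell death, was at 61.2, 56.7 and 66.4 CPM in OFBI and 38.3, 38.8 and 40.1 CPM in Naive, a log2 fold change of 0.65 (edgeR adjusted p = 0.0403). Its groups did not overlap, but its call was not kept when that trend was removed (edgeR adjusted p = 0.991). Ndufa2, Ndufa13 and Ndufs4 are named because they passed the test, which was known when they were chosen.

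Ndufa4 and Ndufa4l2 are listed with complex I by symbol, although the product of Ndufa4 is now placed in complex IV. Ndufa4l2, a gene induced by low oxygen in many cells, was at 0, 2.88 and 0 CPM in OFBI and 3.14 to 3.60 CPM in Naive (edgeR adjusted p = 0.366). Ndufa4 was at 28.1, 43.5 and 42.1 CPM in OFBI and 29.5 to 40.6 CPM in Naive. The groups of Ndufa4 overlapped, and those of Ndufa4l2 did not, at a depth where few fragments decide the OFBI value.

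**Figure D3:**
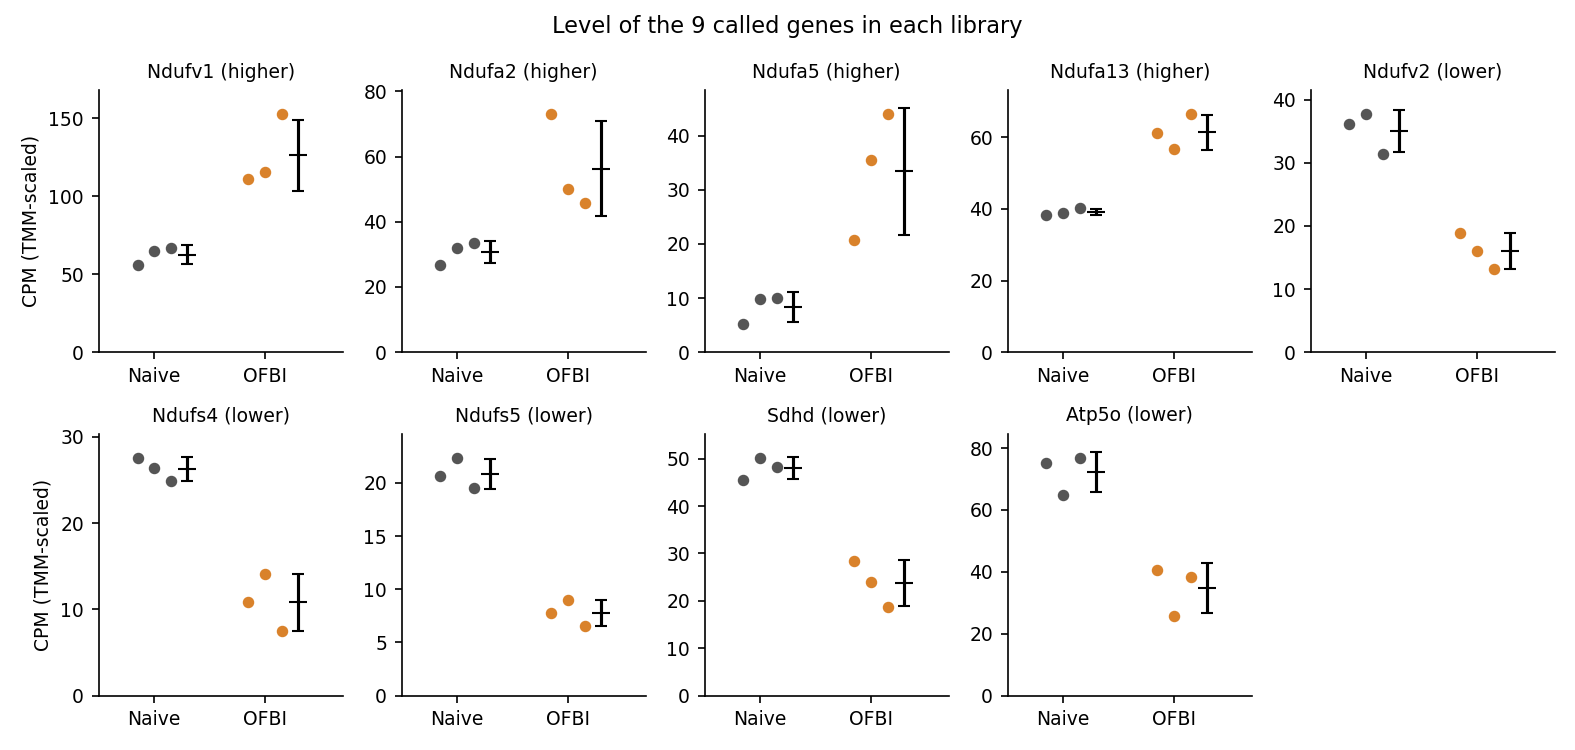
TMM-scaled CPM of the 9 called genes in each library, on axes that start at 0, with 1 point per library (grey Naive, orange OFBI) and the mean ± SD of the 3 libraries beside each group. In all 9 panels the OFBI points lie wholly above or wholly below the Naive points.

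In complex II 1 of 4 genes fell, where 10.4% of all genes tested were called lower. Sdhd encodes one of the membrane anchors that bind ubiquinone. Sdhd (chr9:50596357-50603812, minus strand) was at 28.4, 24.0 and 18.7 CPM in OFBI and 45.5, 50.2 and 48.2 CPM in Naive, without overlap, and fell by 0.99 on the log2 scale (SE 0.22, edgeR adjusted p = 0.0284). Sdhc, the other anchor, was at 59.0, 56.0 and 99.1 CPM in OFBI and 46.8 to 59.3 CPM in Naive, with a log2 fold change of 0.37 (edgeR adjusted p = 0.369). The catalytic subunits were not called: Sdha, the flavoprotein, had an interval from 0.834-fold to 1.43-fold and Sdhb, the iron-sulphur protein, from 0.605-fold to 1.21-fold, and both overlapped between groups. The median log2 fold change of the complex was -0.05.

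No gene of complex III passed the adjusted threshold in edgeR with all libraries. At an unadjusted p below 0.05 there was 1 higher and 1 lower, DESeq2 called 1 higher and limma-voom none. Cyc1, the cytochrome c1 heme protein, was at 60.3, 94.1 and 83.2 CPM in OFBI and 47.7 to 52.1 CPM in Naive, without overlap (log2 fold change 0.65, edgeR adjusted p = 0.0697, DESeq2 adjusted p = 0.0177). The core proteins Uqcrc1 and Uqcrc2 differed in direction and in precision. Uqcrc1 was at 221, 190 and 196 CPM in OFBI and 167 to 179 CPM in Naive, with a log2 fold change of 0.22 (edgeR adjusted p = 0.296). Uqcrc2 was at 54.7, 41.6 and 15.9 CPM in OFBI and 73.0 to 75.2 CPM in Naive, without overlap. Its log2 fold change was -0.93 (edgeR adjusted p = 0.131), and the third OFBI library gave the lowest value. Without that library Uqcrc2 was called lower (log2 fold change -0.63, edgeR adjusted p = 0.0362).

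The third OFBI library stood apart for several genes of complex III. Uqcrfs1, the Rieske iron-sulphur protein, was at 68.3, 74.6 and 13.1 CPM in OFBI and 60.7 to 88.9 CPM in Naive. Uqcr10 had no count in that library, and was at 11.1 and 15.7 CPM in OFBI libraries 1 and 2. In Naive Uqcr10 was at 22.3 to 26.5 CPM. Without OFBI library 3 Uqcr10 was called lower (log2 fold change -0.85, edgeR adjusted p = 0.0456). The median log2 fold change of complex III in the fit was 0.26. Taken library by library against the Naive mean, on log2 of CPM + 1, the median was -0.00, 0.12 and -0.25 in OFBI libraries 1, 2 and 3, so the sign of the fitted median did not hold in each library. Over all genes tested the same medians were -0.15, -0.18 and -0.53, so the third library was lowest there too. In that library 27.6% of all genes tested had no count. Cycs, the cytochrome c gene, was at 21.6, 5.76 and 39.3 CPM in OFBI and 12.8 to 18.5 CPM in Naive (edgeR adjusted p = 0.713). Its OFBI values lay on both sides of the Naive range, and Cycs has processed copies elsewhere in the genome that can share its reads.

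No gene of complex IV passed the adjusted threshold in edgeR with all libraries either. There was 1 higher and 0 lower at an unadjusted p below 0.05, 1 higher in DESeq2 and none in limma-voom. Cox6a1 was that gene, at 238, 120 and 224 CPM in OFBI and 85.3, 113 and 123 CPM in Naive (log2 fold change 0.85, edgeR adjusted p = 0.0790, DESeq2 adjusted p = 0.0297). The second OFBI library lay inside the Naive range. Cox4i1, the regulatory subunit IV, was at 121, 213 and 179 CPM in OFBI and 120 to 152 CPM in Naive. Cox5a and Cox5b had log2 fold changes of -0.58 and -0.03, and both overlapped between groups. Cox5a was at 22.3, 27.2 and 45.8 CPM in OFBI and 42.1 to 49.6 CPM in Naive. Without OFBI library 3 it was called lower (log2 fold change -0.91, edgeR adjusted p = 0.0178). Cox7a2l, whose product has been studied in respiratory supercomplexes, was at 146, 117 and 143 CPM in OFBI and 127 to 140 CPM in Naive, with an interval from 0.798-fold to 1.29-fold.

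Complex IV has paired subunit genes, one widely expressed and one used in muscle, lung or testis. Cox6a2, Cox7a1 and Cox8b are the heart and skeletal muscle forms. Cox7a1 made up 26.2%, 8.64% and 0% of the Cox7a1 and Cox7a2 counts in OFBI libraries and 4.86% to 5.89% in Naive libraries. Cox6a2 made up 2.41%, 1.05% and 4.38% of the Cox6a pair in OFBI and 2.17% to 3.03% in Naive. Cox8b made up 3.45%, 21.6% and 0% of the Cox8a and Cox8b counts in OFBI and 2.44% to 3.18% in Naive. The OFBI counts behind these shares were 21, 7 and 0 for Cox7a1, 19, 4 and 11 for Cox6a2 and 4, 8 and 0 for Cox8b. Few fragments therefore decide the OFBI shares. The OFBI shares of all 3 pairs lay on both sides of the Naive range, and no muscle form was called. The summed level of 11 cardiomyocyte markers was 188, 29.1 and 244 CPM in OFBI and 19.3 to 24.2 CPM in Naive. Of the 10 tested cardiomyocyte markers 5 were called higher, as were 8.41% of all genes tested. The sum of 12 skeletal muscle markers was 315 to 359 against 275 to 288 CPM. Their part in the muscle-form values was not tested. Cox6b2, a testis form, was at 1.85, 0 and 0 CPM in OFBI and 0.749 to 1.23 CPM in Naive, and Cox7b at 8.66, 5.12 and 21.5 CPM against 17.7 to 20.7 CPM, both overlapping. Without OFBI library 3 Cox7b was called lower (log2 fold change -1.49, edgeR adjusted p = 0.0164).

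In complex V 1 of 16 genes fell (6.25%, against 10.4% of all genes tested) and none rose. Atp5o encodes the OSCP subunit, which ties the catalytic F1 head to the peripheral stalk. Atp5o (chr16:91925214-91931687, minus strand) was at 40.5, 25.6 and 38.3 CPM in OFBI and 75.1, 64.9 and 76.9 CPM in Naive, without overlap, and fell by 1.06 on the log2 scale (SE 0.23, edgeR adjusted p = 0.0249). The other stalk genes, named after their values were seen, were Atp5f1, Atp5j and Atp5h, with log2 fold changes of -0.36, -0.49 and -0.07 and edgeR adjusted p of 0.205, 0.291 and 0.843. Atp5f1 and Atp5j were lower in every OFBI library than in any Naive library, as were 29.9% of all genes tested, while Atp5h overlapped. The sum of the 4 stalk genes was 246 to 282 CPM in OFBI and 296 to 377 CPM in Naive, and was not tested.

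The F1 head held the gene with the narrowest interval, Atp5b. Atp5b was at 483, 499 and 525 CPM in OFBI and 458, 474 and 467 CPM in Naive, and its interval ran from 0.900-fold to 1.29-fold. Atp5a1, the alpha subunit, was at 431, 418 and 412 CPM in OFBI and 330, 351 and 352 CPM in Naive, with a log2 fold change of 0.29 (edgeR adjusted p = 0.120, DESeq2 adjusted p = 0.00124). Both genes were higher in every OFBI library than in any Naive library, and neither passed in edgeR. Atp5c1, the gamma subunit that turns in the head, was at 50.7, 26.3 and 55.2 CPM in OFBI and 78.7 to 88.8 CPM in Naive (log2 fold change -0.97, edgeR adjusted p = 0.0550, DESeq2 adjusted p = 0.0145). Atp5d, the delta subunit beside it, was at 142, 112 and 123 CPM in OFBI and 106 to 133 CPM in Naive. The ratio of Atp5o to Atp5b counts, a pair chosen after its values were seen, was 0.0838, 0.0513 and 0.0731 in OFBI and 0.137 to 0.165 in Naive.

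The c-ring genes Atp5g1, Atp5g2 and Atp5g3 encode the same mature protein behind different import sequences. Atp5g3 gave 50.7%, 61.8% and 80.9% of their counts in the OFBI libraries and 47.4%, 49.4% and 51.7% in the Naive libraries. The first OFBI library lay inside the Naive range and the third was far above it. Atp5g3 was at 134, 136 and 325 CPM in OFBI and 107 to 116 CPM in Naive (edgeR adjusted p = 0.159), Atp5g1 at 39.3, 16.3 and 19.6 CPM against 42.3 to 48.1 CPM (edgeR adjusted p = 0.161), and Atp5g2 at 57.1 to 91.5 CPM against 57.6 to 84.3 CPM.

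Set side by side, the complexes had median log2 fold changes of -0.22 (I), -0.05 (II), 0.26 (III), 0.02 (IV) and 0.03 (V), with -0.07 over the 82 genes. Less the median of all genes tested, these were -0.02, 0.15, 0.46, 0.22 and 0.23, and 0.12 for the 82. With library size as the only scaling the median of all genes moved from -0.20 to -0.40 and those of complexes IV and V turned to -0.18 and -0.17, while the values less the all-gene median stayed at 0.22 and 0.23. Without OFBI library 2 the medians of complexes III, IV and V were -0.01, -0.13 and -0.18. The genes of a complex share the same libraries and are not replicates, so differences between complexes were not tested.

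Genes that build or feed the respiratory chain were taken from lists made with earlier results of these data known. Of 49 tested assembly factors 1 rose and 3 fell, 8.16% in all, against 18.8% of all genes tested. Timmdc1, a complex I assembly factor, was at 50.1, 63.7 and 66.4 CPM in OFBI and 26.4 to 27.2 CPM in Naive (log2 fold change 1.16, edgeR adjusted p = 0.0155). Ndufaf2, another, had no count in the OFBI libraries and 2.59 to 2.75 CPM in Naive, at least 1.64-fold lower when 12 counts over the group are taken as the floor (edgeR adjusted p = 0.0235). Sdhaf2, which helps insert the flavin of complex II, fell by 1.19 and Coa3, of complex IV, by 0.97 on the log2 scale (edgeR adjusted p = 0.0461 and 0.0479).

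Of 16 genes of the citric acid cycle and pyruvate dehydrogenase 2 rose and 2 fell, against 8.41% of all genes tested called higher and 10.4% called lower. Negative log2 fold changes were found for 13 of the 16, as for 8240 of all 13941 genes tested. The OFBI libraries all lay below those of Naive for 7 and all above for 2, against 29.9% and 16.4% of all genes tested. Their sum was 1142 to 1350 CPM in OFBI and 1447 to 1461 CPM in Naive, and was not tested. Dlst and Mdh2 rose, with log2 fold changes of 1.21 and 0.67, and Suclg2 and Pdha1 fell by 0.87 and 0.66 on the log2 scale (edgeR adjusted p = 0.0286, 0.0283, 0.0310 and 0.0386). Among 14 regulators of mitochondrial biogenesis 1 passed (7.14%, against 18.8% of all genes tested). This was Esrra, the estrogen-related receptor alpha, at 174, 166 and 213 CPM in OFBI and 64.3 to 79.0 CPM in Naive (log2 fold change 1.38, SE 0.17, edgeR adjusted p = 0.00827). Its coactivator Ppargc1a was at 1.24, 3.84 and 0 CPM in OFBI and 5.84 to 6.52 CPM in Naive (edgeR adjusted p = 0.209). Nrf1, which binds many promoters of respiratory chain genes, had an edgeR adjusted p of 0.739 and Tfam, the mitochondrial DNA packaging factor, of 0.609. None of the 4 tested subunit genes that the symbol rule leaves out, such as Ndufab1 and Usmg5, was called by edgeR, DESeq2 or limma-voom, and 0 had an unadjusted p below 0.05 in edgeR.

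Of the 13 mitochondrially encoded subunits 1 rose and 1 fell, 15.4% in all against 18.8% of all genes tested, and single values were erratic. The summed level was 2613, 2309 and 5480 CPM in OFBI and 3845 to 4320 CPM in Naive. mt-Nd6 rose, from 95.5 to 117 CPM in Naive to 501, 685 and 1471 CPM in OFBI (edgeR adjusted p = 0.00979), and mt-Nd4l fell, from 78.3 to 82.3 CPM in Naive to 0.927, 0 and 0 CPM (edgeR adjusted p = 0.00530). In single libraries mt-Nd4 was at 0.242 CPM in Naive library 3, mt-Cytb at 0 in OFBI library 3 and mt-Atp6 at 0.309 CPM in OFBI library 1, where the other libraries of the same group held 375 to 387, 220 to 323 and 78.1 to 267 CPM. Mitochondrial genes overlap or abut and mt-Nd6 lies on the strand opposite to the rest. The strand setting of the counting is not given in the sources used here, so reads of such neighbours cannot be told apart.

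The corneal markers differed between the groups too. The summed level of epithelial markers was 63221 to 82647 CPM in OFBI and 32018 to 33516 CPM in Naive, that of keratocyte markers 4775 to 6681 against 1497 to 2003 CPM, and that of endothelial markers 1349 to 1483 against 1668 to 1781 CPM. Of the tested markers 5 of 11 rose and 1 fell in the epithelium, 3 of 8 rose and 2 fell in keratocytes, and 0 of 7 rose and 3 fell in the endothelium. Of all genes tested 8.41% were called higher and 10.4% lower. The keratocyte sum was carried by the collagen genes Col1a1, Col1a2 and Col5a1, which rose, while the other 5 markers had negative log2 fold changes, Dcn and Ptgds among them past the threshold, and the median of the list was -0.52. The part of these cell types in the values of the respiratory chain genes was not tested.

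Fold changes also differed with the base composition of transcripts. Over all genes tested the median log2 fold change was -0.60 for transcripts under 45% GC, -0.38 from 45% to 50%, -0.16 from 50% to 55% and 0.25 from 55% upward. For the respiratory chain genes it was -0.30 (9 genes), -0.15 (19), 0.06 (32) and -0.16 (22) in the same classes. Across genes, which are not independent replicates, Pearson's r between GC and log2 fold change was 0.12 for the 82 genes and 0.19 for 13806 genes with a gene model. Spearman's rank correlation was 0.14 and 0.32 for the same sets. Among the called genes, Ndufs4 and Ndufv2 had 43.1% and 44.4% GC and fell, and Ndufv1 and Ndufa13 had 56.2% and 60.4% and rose. The other 5 lay between 49.4% and 53.3%, where Ndufa5 (50.7%) and Ndufa2 (51.7%) rose and Sdhd (49.4%), Atp5o (52.6%) and Ndufs5 (53.3%) fell. With a trend on length and GC content fitted on well-covered genes and removed from each library, a setting chosen after seeing the data, Ndufa13 moved to -0.00 (adjusted p = 0.991), Ndufs4 to -0.95 (adjusted p = 0.0819), Ndufv2 to -0.85 (adjusted p = 0.0782) and Ndufa2 kept 0.89 (adjusted p = 0.0631), all by edgeR. Ndufv1, Ndufa5, Ndufs5, Sdhd and Atp5o stayed past the threshold in that fit. With the trend fitted on all tested genes, as first run, the median of all genes moved to 0.95, and 28 of the genes were called higher and 0 lower, 4 of the 9 among them.

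**Figure D4:**
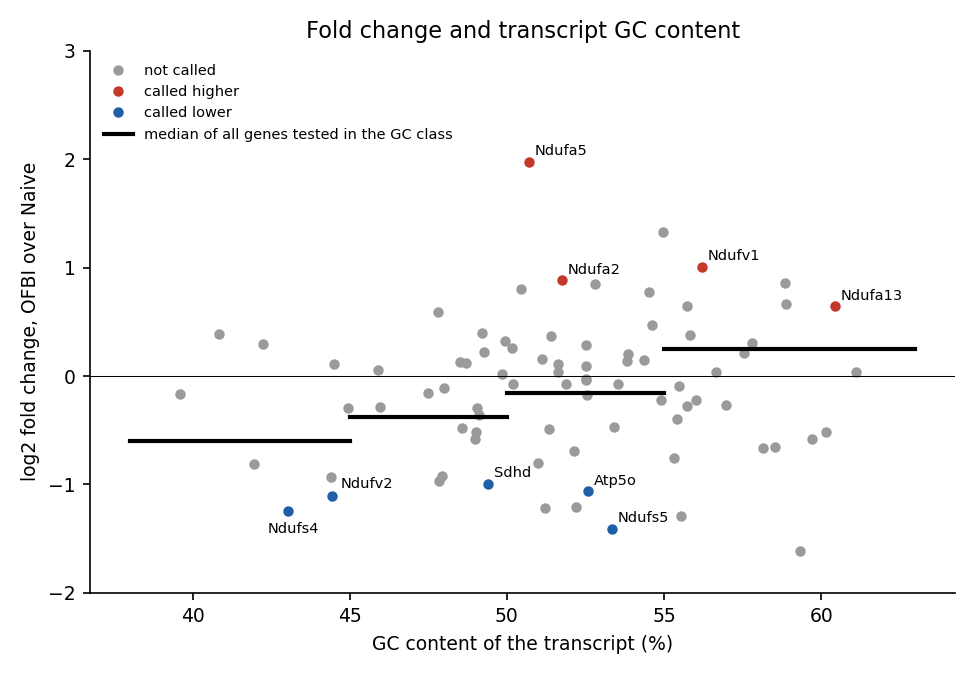
GC content of the transcript (percent) against the log2 fold change of OFBI over Naive for the tested genes, with called genes in red (higher) and blue (lower). Black bars are the medians of all genes tested in 4 GC classes and climb from -0.60 to 0.25, while the respiratory chain genes scatter on both sides of them.

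Short promoter motifs, which the symbol rule did not use, were each found in a minority of these genes. Promoter windows from 250 bases before to 50 bases after the start site were available in RefSeq (GRCm38.p6) for 67 of the 85 genes, and 5 strings were searched on both strands. GCATGCGC, a core of the site of the factor NRF1, was in 11 of the 67 (16.4%), in 5.65% of the windows of all tested symbols and in 3.05% of all 27025 symbols. CCGGAAG, an ETS core such as GABPA binds, was in 16 (23.9%), against 18.9% and 9.93%, and AAGATGG, a YY1 core, in 10 (14.9%), against 7.95% and 7.28%. The shorter TGCGCA, part of the NRF1 site, was in 17 (25.4%), against 15.2% and 8.79%, and TGACGT, a cyclic AMP response element core, in 9 (13.4%), against 12.7% and 8.37%. TGCGCA and GCATGCGC share bases, so their counts overlap. Of the 9 called genes 8 had a window, and GCATGCGC was in 0 of these, CCGGAAG in 1, AAGATGG in 1, TGCGCA in 3 and TGACGT in 1. The shares of CCGGAAG and TGACGT were near those of all tested symbols. A match describes these letters in the window and does not show binding.

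Windows upstream of the start site with no annotated exon are shown for 3 genes with the NRF1 core and 3 with the ETS core, to let the shared letters be seen. They are in the direction of the gene, 5′ to 3′, with the motif in capitals, and CTTCCGG is the ETS core read on the other strand. None of these genes was called. The NRF1 windows are Atp5l at chr9:44920959-44920992 (minus strand), Ndufa6 at chr15:82354351-82354390 (minus strand) and Ndufa11 at chr17:56717688-56717727 (plus strand). The ETS windows are Atp5e at chr2:174464181-174464219, Ndufb6 at chr4:40279631-40279669 and Uqcr11 at chr10:80406865-80406903, all on the minus strand.
Atp5l: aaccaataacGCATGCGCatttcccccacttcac
Ndufa6: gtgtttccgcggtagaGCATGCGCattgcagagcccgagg
Ndufa11: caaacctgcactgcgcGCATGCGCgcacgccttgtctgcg
Atp5e: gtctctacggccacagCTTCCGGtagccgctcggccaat
Ndufb6: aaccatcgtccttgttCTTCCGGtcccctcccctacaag
Uqcr11: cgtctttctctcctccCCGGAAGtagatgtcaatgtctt
In Ndufa11 the motif begins 58 bases before the start site and in Ndufa6 83 bases before it, and their log2 fold changes were -0.66 and -0.47 (edgeR adjusted p = 0.212 and 0.453). In Uqcr11 the ETS core begins 66 bases before the start site, and its log2 fold change was 0.66 (edgeR adjusted p = 0.184).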

How the data were processed

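The authors deposited 1 table per library of estimated counts per gene symbol (expected counts), whole numbers not scaled for depth. The submitters' processing notes name FastQC, HISAT2, StringTie, DESeq2 and GRCm38 without version or role, and the annotation release, strand setting and treatment of multi-mapping reads were not stated in these notes or the labels. Per the labels, 2 µg of total RNA per sample went into a stranded kit. About 4 counts seem to stand for 1 fragment, which is read from the values (39.4% to 50.4% of values from 1 to 40 are multiples of 4), so dividing by 4 was an alternative. Of 22040 rows, 64 rows on 31 symbols were summed, and 26 were gene names turned into dates. None of these rows were among the 85 genes.

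All genes were tested with edgeR 4.0.16 (filterByExpr, TMM, glmQLFit, glmQLFTest, group only) in R 4.3.3, with limma 3.58.1 and DESeq2 1.42.0 as alternatives. Intervals come from the quasi-likelihood F, so they are approximate, and their 3 libraries per group limit them. On simulated counts for 13713 genes of this comparison, 93% of 4-fold and 13% of 2-fold changes were called. The simulation changed few genes and gave both groups the same dispersion, while the real OFBI libraries spread more. These shares therefore do not measure the power of the real comparison. Lengths, GC content and gene positions are from GENCODE M21 (21710 symbols matched). The OFBI floor of 12 counts is 3 fragments. Members and lists were chosen with earlier results of these data known. Named genes are core subunits, isoform families, the 3 smallest p and the 2 highest levels per kilobase of each complex, and others named were chosen after their values were seen. Values of 1 gene that the rule names are not reported here.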

Additional observations from a re-analysis of the deposited data

How the results depend on the processing

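Among 20 alternatives, members called higher (main 4) and lower (main 5) were 7 and 6 with DESeq2, 1 and 0 with limma-voom, 2 and 6 with library size only, 2 and 5 with no filter, 4 and 3 with Naive libraries thinned to the deepest OFBI library, 1 and 0 with all libraries thinned, and 0 and 0 at an adjusted p below 0.01. Leaving out one library gave 0 to 5 higher and 0 to 13 lower. Median log2 fold changes of the members moved from -0.07 to -0.28 (library size only), -0.022 (counts divided by 4), 0.014 (Naive thinned) and 0.0043 (all thinned). With library size only complexes I to V were at -0.42, -0.25, 0.061, -0.18 and -0.17, and with all libraries thinned complex II was at 0.0623 and V at 0.23. Leaving out one library gave ranges of -0.19 to 0.015 for the members and of -0.33 to -0.18, -0.11 to 0.015, -0.0091 to 0.30, -0.13 to 0.10 and -0.18 to 0.11 for complexes I to V.

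The length and GC trend was first run as a fit on all tested genes. It gave 28 higher and 0 lower, medians of 1.19 (members), 0.98, 1.31, 1.19, 1.20 and 1.30 (complexes I to V) and an all-gene median of 0.95. It reversed Atp5o (0.19), Ndufs4 (0.57), Ndufv2 (0.66), Sdhd (0.44), Atp5h (1.25), Cox7c (1.15) and Ndufb11 (1.12). The fit on genes counted in every library at a mean of 5 CPM or more, capped at 2, was set after that result was seen. It gave 2 higher and 4 lower, a complex IV median of -0.047, and reversed Atp5d (-0.69) and Ndufa13 (-0.0041). Sign changes of genes uncalled both times were not counted as reversals. The causes were not tested.

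With the replicate block 2 members were called higher (Ndufa5 and Ndufv1) and 0 lower, and 793 of all genes against 2619. Same-numbered libraries did not deviate together (correlations of -0.0027, -0.0175 and 0.0078), and no label states a pairing. Of the 9 calls, Ndufv1 passed in 16, Ndufa5 in 14, Atp5o and Ndufs5 in 12, Ndufv2 and Sdhd in 11, Ndufa13 and Ndufs4 in 9 and Ndufa2 in 8 of 19 alternatives at 0.05. Depth limits genes near 12 counts over the OFBI group.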
